A study of Homo sapiens with 20 samples.

Results

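HSPA1A (ENSG00000204389), HSPA1B (ENSG00000204388) and HSPA1L (ENSG00000204390) are neighbouring human genes of the HSP70 chaperone family. They were taken by their Ensembl IDs, 3 of the 19029 genes counted in this series, and all 3 are present in all 4 count tables. HSPA1A and HSPA1B were chosen by their levels and fold changes in these same libraries, where the response to i14G1-12 had been seen to differ between immunoprecipitations. Their levels and fold changes, and those of HSPA1L beside them, are therefore a description, given with standard errors and without p-values.

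The treated cells were HEK 293T, a transformed human embryonic kidney line, kept for 1 h in 5 µM i14G1-12, a compound that the title of the series places in the context of an eIF1-eIF4G1 inhibitor. The control cells received DMSO for the same 1 h. All groups are labelled as wild type in genotype and as grown at 37 °C. All were crosslinked with 0.15% formaldehyde and digested with RNase I. Their small ribosomal subunit complexes were immunoprecipitated through eIF4G1, through an HA tag on eIF1, through eIF3 or through an HA tag on eIF2a. The RNA fragments protected inside those complexes were sequenced, a method called selective translation complex profiling. For eIF4G1 and for eIF1 there were 3 libraries with i14G1-12 and 3 with DMSO, and for eIF3 and for eIF2a there were 2 and 2. How the HA-tagged factors were brought into the cells is not stated, so effects of the tag, of the tagged cells, of the antibody and of the factor cannot be told apart. No label ties replicates to separate cultures, so an SD or SE here covers the spread between libraries, which may be technical. No input RNA was used here, and values are relative to the other RNA of the same immunoprecipitate: more mRNA in the cell and more initiation per mRNA cannot be told apart. Marker genes of the cell line could not be looked up, because the IDs of the other genes are not paired with names in the files or in the reference table used here.

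HSPA1A and HSPA1B encode the stress-inducible cytosolic HSP70, a chaperone that binds exposed hydrophobic stretches of unfolded proteins and releases them in a cycle of ATP hydrolysis. Heat and other proteotoxic stress activate the transcription factor HSF1, which binds heat shock elements in the promoters of these genes. The mRNAs come from intronless genes and can be made and translated quickly. HSPA1L encodes a closely related HSP70 protein that is best known from the testis.

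All 3 genes lie on chromosome 6. In RefSeq's annotation of GRCh38.p14, HSPA1A spans positions 31815543 to 31817942 and HSPA1B spans 31827738 to 31830254, both on the plus strand, with 9795 bases between them. HSPA1L spans 31809619 to 31815283 on the minus strand, so that 259 bases lie between its start and that of HSPA1A and they run in opposite directions. The counted sequences were 2400 nt for HSPA1A and 2517 nt for HSPA1B, the same as the RefSeq gene lengths, and 2762 nt for HSPA1L, whose RefSeq gene of 5665 nt holds introns.

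The upstream windows of HSPA1A and HSPA1B are shown as a description of the genes. Whether they bear on the levels in these libraries was not tested. Each is the 250 bases before the RefSeq start, from 5′ to 3′ on the plus strand, with the 8-base core of a heat shock element (GAANNTTC) and the TATA box (TATAAA) in capitals.
HSPA1A, chr6:31815293-31815542: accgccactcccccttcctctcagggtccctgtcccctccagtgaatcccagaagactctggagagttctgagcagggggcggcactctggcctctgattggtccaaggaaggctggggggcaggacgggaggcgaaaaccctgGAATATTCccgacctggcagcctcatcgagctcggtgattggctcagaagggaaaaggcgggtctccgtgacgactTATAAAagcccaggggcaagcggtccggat
HSPA1B, chr6:31827488-31827737: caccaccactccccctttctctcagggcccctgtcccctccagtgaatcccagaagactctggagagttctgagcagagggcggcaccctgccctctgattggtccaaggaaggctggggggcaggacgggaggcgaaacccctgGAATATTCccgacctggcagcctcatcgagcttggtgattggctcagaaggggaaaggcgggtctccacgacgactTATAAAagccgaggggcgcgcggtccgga
In a global alignment 235 positions of the 2 windows were identical, 14 were mismatched and 2 were gaps, an identity of 93.6%.

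Both windows held the heat shock element core GAATATTC, at -106 to -99 in HSPA1A and at -105 to -98 in HSPA1B, counted from the base before the start as -1. The TATA box stood at -30 to -25 in HSPA1A and at -29 to -24 in HSPA1B. Each window also held 2 CCAAT boxes (CCAAT) and 1 GC box (GGGCGG), all searched on both strands. The HSPA1L window overlaps that of HSPA1A by 241 bases, so it holds the same heat shock element core, at -161 to -154 from the HSPA1L start. Of 35116 RefSeq promoters cut to the same 250 bases, 5.78% held GAANNTTC, 10.7% held TATAAA, 32% held CCAAT and 42.6% held GGGCGG. Another form of the heat shock element core, TTCNNGAA, was also searched. It was absent from the windows of HSPA1A, HSPA1B and HSPA1L, and 6.62% of all promoters held it. Both forms together were in 0.817% of promoters. These matches describe the letters of the windows. No transcription factor binding was measured in these libraries.

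Library totals ran from 10033 counts in DMSO replicate 2 of eIF2a to 1161512 in DMSO library f1 of eIF1, and DMSO replicate 2 of eIF3 held 59179. Both of the replicate 2 DMSO libraries of eIF2a and eIF3 are too shallow to carry a result alone. The pair's fold changes in eIF3 and eIF2a and its DMSO level differences of eIF3 are also given without them. For single genes and for differences in effect, single values without them are not given. The eIF1 libraries are called by the numbers of their columns, f1 to f3 for DMSO and f4 to f6 for i14G1-12, because these do not match replicate numbers of the labels. Levels are CPM, counts scaled to a common library size, after scaling all 20 libraries together with edgeR's TMM factors, which correct for differences in composition. Across all genes edgeR's quasi-likelihood test called 0.347% of those tested in eIF4G1 complexes as changed by i14G1-12, 0.456% in eIF1 and 0.0159% in eIF3. In eIF2a it called 0 of 4719 genes, where 87 had an unadjusted p under 0.05 and DESeq2 also called 0. The contrast that led to the choice of HSPA1A and HSPA1B, the i14G1-12 effect in eIF4G1 minus that in eIF1, called 0.0318% of genes. That is 3 of 9426 genes, and 1 with the copies summed, so this share may include the members themselves.

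Read together, HSPA1A and HSPA1B were at overlapping levels in the 4 immunoprecipitations after i14G1-12, while after DMSO the HA libraries lay above those of eIF4G1 and eIF3. Because the copies are near identical, the sum of their reads is the safer measure, and it comes first. In eIF4G1 complexes the sum was 4231, 2347 and 2388 CPM in the 3 i14G1-12 replicates, against 264, 210.1 and 260.4 CPM in the 3 DMSO replicates. Every i14G1-12 library was far above every DMSO library, and replicate 1 of the i14G1-12 libraries was the highest of all 20. In eIF1 complexes the sum was 2441, 2422 and 2635 CPM in i14G1-12 libraries f4, f5 and f6, against 1426, 1586 and 1746 CPM in DMSO libraries f1, f2 and f3. Here too the groups did not overlap, but the step between them was smaller than in eIF4G1, and the DMSO libraries were higher.

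**Figure D1:**
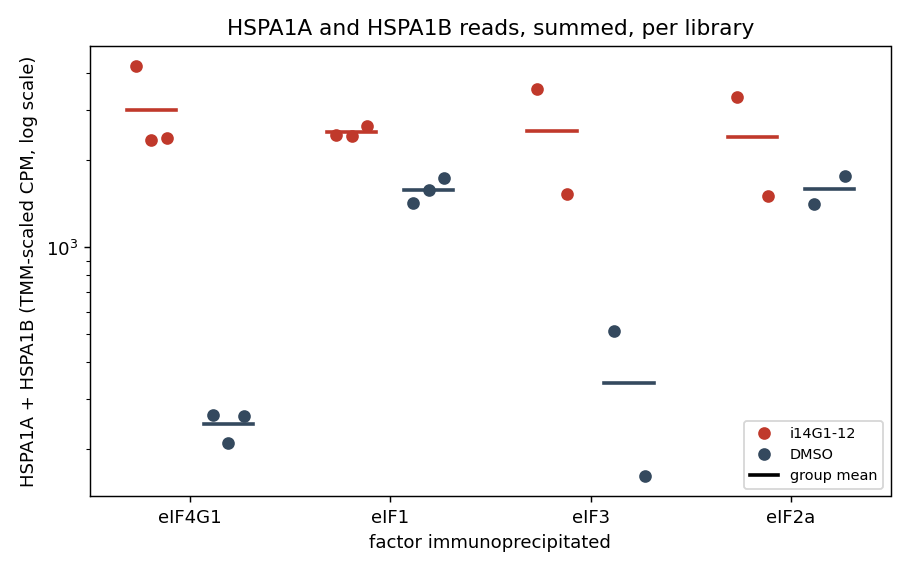
The vertical axis shows the summed reads of HSPA1A and HSPA1B in TMM-scaled CPM on a log scale, one point per library, with i14G1-12 left of DMSO for each factor and a bar at the group mean. All 10 i14G1-12 libraries lie between 1502 and 4231 CPM, while DMSO libraries lie between 162 and 514 CPM in eIF4G1 and eIF3 and between 1415 and 1770 CPM in eIF1 and eIF2a.

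In eIF3 complexes the sum was 3532 and 1526 CPM in i14G1-12 replicates 1 and 2, against 514 and 162 CPM in DMSO replicates 1 and 2. Both i14G1-12 libraries were above both DMSO libraries, and within each treatment replicate 2 was the lower. DMSO replicate 2 held only 12 reads of the pair. In eIF2a complexes the sum was 3306 and 1502 CPM in i14G1-12 replicates 1 and 2, against 1415 and 1770 CPM in DMSO replicates 1 and 2. The groups overlapped, with 1 i14G1-12 library above both DMSO libraries and the other between them. The higher of these DMSO values rests on 34 reads in the library of 10033 counts.

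As a share of all reads in a library, the pair took 0.380%, 0.224% and 0.253% in eIF4G1 complexes after i14G1-12, against 0.0278%, 0.0237% and 0.0276% after DMSO. The exact 95% binomial interval was 0.359% to 0.402% for the highest of these libraries and 0.0189% to 0.0294% for the lowest. Such intervals cover counting error only. HSPA1A and HSPA1B together would rank 19th, 35th and 21st among all genes by count in the i14G1-12 libraries, and 628th, 704th and 638th in the DMSO libraries. In eIF1 complexes the pair took 0.147%, 0.208% and 0.220% of reads after i14G1-12, against 0.108%, 0.147% and 0.154% after DMSO. On this unscaled measure i14G1-12 library f4 (0.1466%) and DMSO library f2 (0.1465%) were nearly equal, and DMSO library f3 was above f4, so the eIF1 groups overlapped. In eIF2a it took 0.347% and 0.155% after i14G1-12, against 0.146% and 0.339% after DMSO. The last of these, from the library of 10033 counts, has an interval of 0.235% to 0.473%, and TMM scaling brought it down to the 1770 CPM given above.

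The order of the group means, from highest to lowest, put the 4 i14G1-12 groups first. The pair averaged 2989 ± 1076 CPM in eIF4G1 with i14G1-12 (SD, n = 3), 2529 ± 1418 in eIF3 with i14G1-12 (SD, n = 2), 2499 ± 118 in eIF1 with i14G1-12 (SD, n = 3) and 2404 ± 1276 in eIF2a with i14G1-12 (SD, n = 2). Neighbours among these 4 differed by less than their spread. Next came the DMSO groups of the HA immunoprecipitations, at 1592 ± 251 CPM in eIF2a (SD, n = 2) and 1586 ± 160 in eIF1 (SD, n = 3), which also did not differ beyond their spread. Scaled by total counts alone, the log2 difference of eIF2a from eIF1 in DMSO was 0.69, against -0.02 with TMM. Last came the DMSO groups without a tag, at 338 ± 249 CPM in eIF3 (SD, n = 2) and 245 ± 30.1 in eIF4G1 (SD, n = 3), again within their spread. The one step in this order that no library crossed was between the tagged and the untagged DMSO groups: the 5 HA libraries lay at 1415 to 1770 CPM and the 5 libraries of eIF4G1 and eIF3 at 162 to 514 CPM. Of all 9426 genes compared in this way, 0.7% had every HA library above every other library in DMSO. In the i14G1-12 libraries 0.806% did, and there the pair did not: its 5 HA libraries lay at 1502 to 3306 CPM and the other 5 at 1526 to 4231 CPM.

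Fold changes from the fit of each immunoprecipitation on its own libraries follow the same pattern. For the pair the log2 fold change was 3.61 (SE 0.31) in eIF4G1, a 12.2-fold higher level with i14G1-12, and it stayed between 3.28 and 3.77 when any 1 of the 6 libraries was left out. In eIF3 it was 2.82 (SE 0.78), or 7.05-fold, but single libraries decided its size: it was 3.88 without DMSO replicate 1 and 2.08 without i14G1-12 replicate 1. Without the shallow DMSO replicate 2 it was 2.29. In eIF1 it was 0.63 (SE 0.21), or 1.55-fold, with a range of 0.54 to 0.71 over libraries left out. In eIF2a it was 0.50 (SE 0.40), or 1.42-fold, and it turned to -0.17 without i14G1-12 replicate 1. It was 0.76 without the library of 10033 counts.

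**Figure D2:**
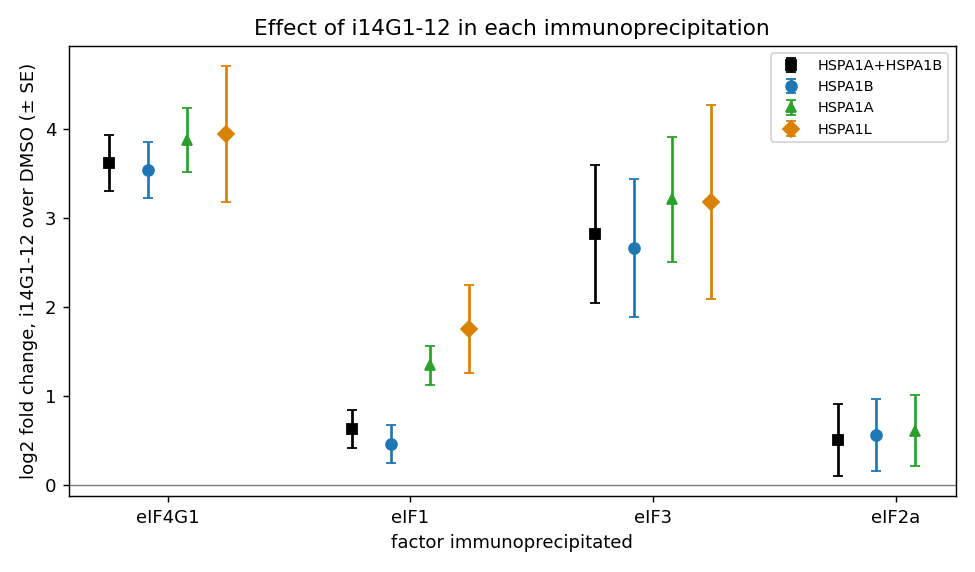
The vertical axis gives the log2 fold change of i14G1-12 over DMSO with its standard error, for the sum of HSPA1A and HSPA1B and for each gene, in each immunoprecipitation; HSPA1L was not fitted in eIF2a because its counts were too low. Values for the pair are 3.61 in eIF4G1, 0.63 in eIF1, 2.82 in eIF3 and 0.50 in eIF2a.

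In 1 fit to all 20 libraries the effect on the pair was larger in eIF4G1 than in eIF1 by 2.95 on the log2 scale (SE 0.52), and larger than in eIF2a by 2.99 (SE 0.60). Leaving out any 1 of the 20 libraries gave 2.63 to 3.10 for the first of these and 2.51 to 3.63 for the second. Between eIF4G1 and eIF3 the difference in effect was 0.82 (SE 0.58), with a 95% interval from -0.32 to 1.96, and it was -0.45 without DMSO replicate 1 of eIF3 and 1.56 without i14G1-12 replicate 1 of eIF3. The effect in eIF3 was larger than in eIF1 by 2.13 (SE 0.58), or by 3.40 without DMSO replicate 1 of eIF3 and by 1.40 without its i14G1-12 replicate 1. Between the HA immunoprecipitations, eIF2a minus eIF1, the difference in effect was -0.03 (SE 0.58), with a 95% interval from -1.17 to 1.10. It was -0.67 without i14G1-12 replicate 1 of eIF2a and 0.46 without its replicate 2.

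A difference in effect is the difference of i14G1-12 levels minus that of DMSO levels, and the 2 terms were unequal. After i14G1-12 the pair in eIF4G1 differed from eIF1 by 0.26 (SE 0.36), from eIF2a by 0.32 (SE 0.40) and from eIF3 by 0.23 (SE 0.40) on the log2 scale. The 95% intervals of these level differences ran from -0.43 to 0.96, from -0.47 to 1.11 and from -0.55 to 1.02. Leaving out 1 library turned the sign of each: the difference from eIF1 was -0.06 without i14G1-12 replicate 1 of eIF4G1 and at most 0.41. The difference from eIF2a was 0.97 without i14G1-12 replicate 1 of eIF2a and -0.15 without its replicate 2. The difference from eIF3 was 0.96 without i14G1-12 replicate 1 of eIF3 and -0.24 without its replicate 2. After DMSO the level in eIF4G1 was lower than in eIF1, by a log2 difference of -2.69 (SE 0.39), and lower than in eIF2a, by -2.67 (SE 0.43). The DMSO level in eIF3 was likewise lower than in eIF1, by -2.09 (SE 0.44), and lower than in eIF2a, by -2.08 (SE 0.48). Without DMSO replicate 1 of eIF3 these last values were -3.33 and -3.25, resting on the 12 reads of replicate 2, and without that shallow replicate they were -1.62 and -1.60. Between eIF4G1 and eIF3 the DMSO difference was -0.59 (SE 0.42), and it was -1.06 without the shallow DMSO replicate 2 of eIF3 and turned to 0.66 without DMSO replicate 1.

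**Figure D3:**
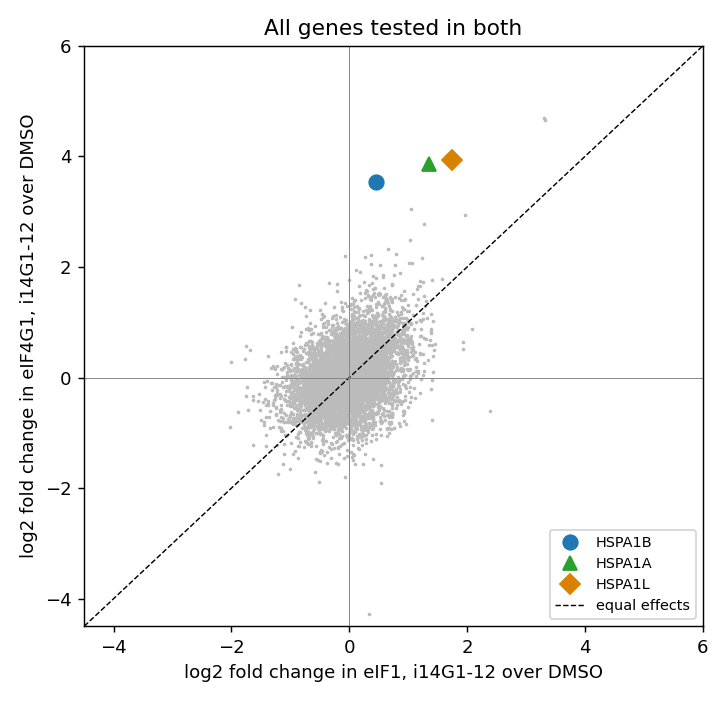
Each grey point is 1 of the 6979 genes tested in both immunoprecipitations, with its log2 fold change in eIF1 on the horizontal axis and in eIF4G1 on the vertical axis; the dashed line marks equal effects. HSPA1B (0.46 and 3.54), HSPA1A (1.35 and 3.87) and HSPA1L (1.75 and 3.94) stand high on the vertical axis and left of the dashed line.

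The members were then taken one at a time. HSPA1B, the copy with more assigned reads in all 20 libraries, had 908, 702 and 2028 reads in eIF4G1 with i14G1-12, or 3147, 1831 and 1762 CPM. With DMSO it had 226, 64 and 53 reads there, or 214, 162 and 206 CPM. In eIF4G1 its log2 fold change was 3.54 (SE 0.32), the 5th highest of 7203 genes tested. In eIF1 it was at 1780, 1905 and 1973 CPM with i14G1-12, against 1225, 1345 and 1480 CPM with DMSO, and its log2 fold change was 0.46 (SE 0.21). It ranked 1383rd of the 8338 genes tested there.

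In eIF3 HSPA1B was at 2593 and 1076 CPM with i14G1-12, against 431 and 108 CPM with DMSO. The groups did not overlap, and its log2 fold change there was 2.66 (SE 0.77), or 1.88 without i14G1-12 replicate 1. Without DMSO replicate 1 it was 4.0, a value that rests on the 8 HSPA1B reads of the shallow DMSO replicate 2. In eIF2a it was at 2448 and 1189 CPM with i14G1-12, against 1087 and 1249 CPM with DMSO. These groups overlapped, and the log2 fold change was 0.56 (SE 0.40), which turned to -0.06 without i14G1-12 replicate 1.

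HSPA1A had 313, 198 and 720 reads in eIF4G1 with i14G1-12, or 1085, 516 and 626 CPM. With DMSO it had 53, 19 and 14 reads, or 50.1, 48.1 and 54.4 CPM, the narrowest of its groups. The log2 fold change was 3.87 (SE 0.36), the 4th highest of 7203 genes. In eIF1 it was at 661, 517 and 662 CPM with i14G1-12, against 201, 241 and 266 CPM with DMSO. As a fold its groups there lay farther apart than those of HSPA1B, and its log2 fold change of 1.35 (SE 0.22) ranked 43rd of 8338 genes, with a range of 1.23 to 1.45 over libraries left out.

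In eIF3 HSPA1A was at 938 and 450.2 CPM with i14G1-12, against 83.9 and 54.1 CPM with DMSO, the last of these from 4 reads. Its log2 fold change was 3.21 (SE 0.70), the 3rd highest of 6300 genes, and 2.59 without i14G1-12 replicate 1. In eIF2a it was at 858 and 313 CPM with i14G1-12, against 328 and 520.5 CPM with DMSO, and these groups overlapped. The log2 fold change was 0.61 (SE 0.40), with values from -0.43 without i14G1-12 replicate 1 to 1.01 without i14G1-12 replicate 2.

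HSPA1L, the neighbour that shares the upstream region with HSPA1A, was far lower and rested on few reads. In eIF4G1 it had 14, 11 and 87 reads with i14G1-12, or 48.5, 28.7 and 75.6 CPM. With DMSO it had 5, 1 and 0 reads, or 4.73 and 2.53 CPM in replicates 1 and 2, while 0 reads allow up to 11.7 CPM in replicate 3, taking 3 counts as the limit. Even that limit was below every i14G1-12 library. The log2 fold change was 3.94 (SE 0.76), and 4.90 without DMSO replicate 1, where 1 DMSO read remains. In eIF1 HSPA1L was at 50.2, 27.2 and 76.2 CPM with i14G1-12, against 9.10, 20.6 and 14.1 CPM with DMSO. The groups did not overlap, and the log2 fold change was 1.75 (SE 0.49). In eIF4G1, eIF1 and eIF3 alike, HSPA1L passed the filter on low counts only through its i14G1-12 libraries. That filter favours a high fold change, so ranks of HSPA1L among the genes tested are not given.

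In eIF3 HSPA1L had 11 and 17 reads with i14G1-12, or 38.8 and 64.9 CPM, against 4 reads, or 6.22 CPM, in DMSO replicate 1 and 0 reads in DMSO replicate 2. A count of 0 in that shallow library allows up to 40.5 CPM, which is above the lower i14G1-12 value, so the groups cannot be separated at this depth. The log2 fold change was 3.18 (SE 1.09), and without DMSO replicate 1 no fold can be given, since the remaining DMSO library had 0 reads. In eIF2a HSPA1L had 2 and 6 reads with i14G1-12, against 7 and 0 with DMSO. It did not pass the filter on low counts there, and the 0 allows up to 156 CPM. The difference in its effect between eIF4G1 and eIF1 was 2.12 (SE 0.90), ranging from 1.65 without i14G1-12 replicate 3 of eIF4G1 to 3.09 without DMSO replicate 1 of eIF4G1.

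**Figure D4:**
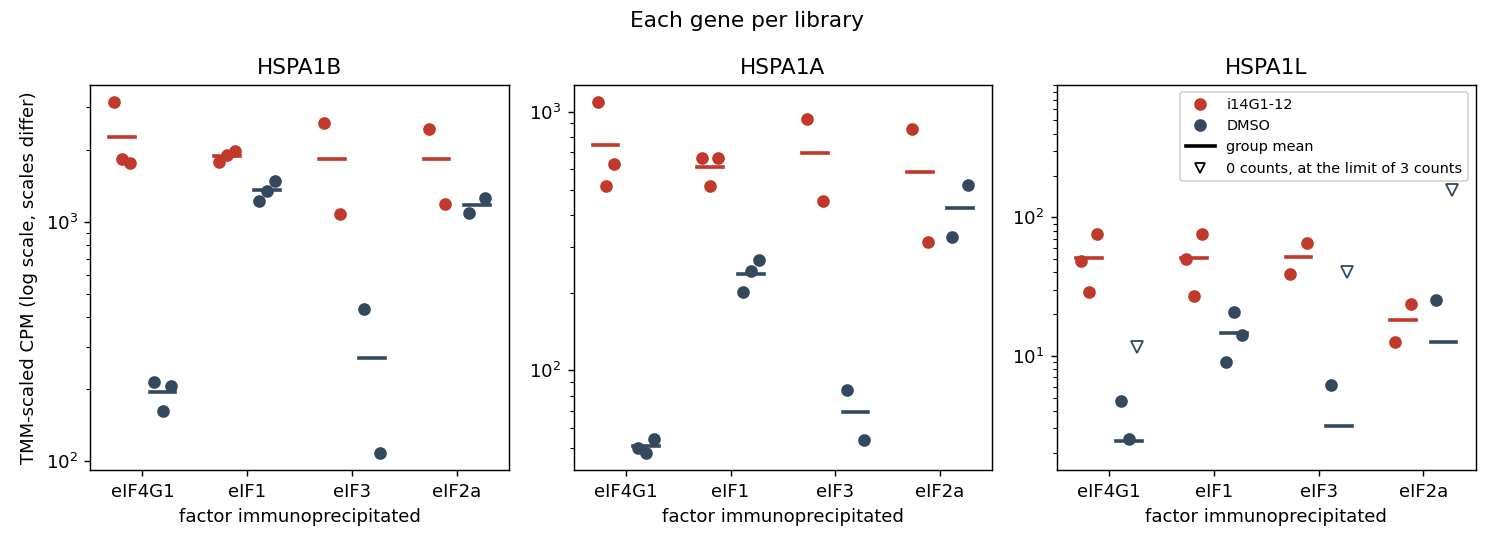
Each panel shows 1 gene in TMM-scaled CPM on its own log scale, one point per library, i14G1-12 left of DMSO, with bars at group means; open triangles mark libraries with 0 counts, drawn at the limit that 3 counts would give. In eIF4G1 the 3 genes stand at 1762 to 3147, 516 to 1085 and 28.7 to 75.6 CPM with i14G1-12, against 162 to 214, 48.1 to 54.4 and, for HSPA1L, 4.73 and 2.53 CPM with DMSO, beside 1 HSPA1L library with 0 counts drawn at 11.7 CPM.

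HSPA1A and HSPA1B had every i14G1-12 library above every DMSO library in eIF4G1, where 7.16% of genes tested did, and in eIF1, where 8.85% did. Both also had this order in eIF3, where 13.8% of genes tested had it. In eIF2a it held for none of the 3 genes, while 21.8% of genes tested had it. HSPA1L had the order in eIF4G1, in eIF1 and, as counted, in eIF3, with the limit given above. It is not set against these shares, because it passed the filter on low counts only through its i14G1-12 libraries. HSPA1A and HSPA1B were chosen with this contrast in view, and all these orders rest on TMM-scaled CPM. As an unscaled share of reads, HSPA1B in eIF1 was at 0.107% in i14G1-12 library f4. That was below DMSO libraries f2 (0.124%) and f3 (0.130%), so on this measure its eIF1 groups overlapped. HSPA1A and HSPA1B passed the filter on low counts in all 4 immunoprecipitations and HSPA1L in 3 of them. Over all genes tested the median log2 fold change was between -0.01 and 0.06 in the 4 comparisons. TMM scaling centres the bulk of genes, so these medians are largely set by the scaling. With total counts alone the median was -0.13 in eIF1 and -0.16 in eIF4G1.

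Levels of different genes were compared per kilobase of counted sequence. In eIF4G1 with i14G1-12, HSPA1B averaged 893 ± 310 CPM per kb, HSPA1A 309 ± 126 and HSPA1L 18.4 ± 8.52 (SD, n = 3 each). With DMSO the same immunoprecipitation held 77 ± 11.1 CPM per kb of HSPA1B, 21.2 ± 1.35 of HSPA1A and 0.876 ± 0.857 of HSPA1L (SD, n = 3 each). In eIF1 with i14G1-12 these were 749 ± 39.0, 255 ± 34.9 and 18.5 ± 8.87 CPM per kb, and with DMSO 536 ± 50.7, 98.5 ± 13.6 and 5.29 ± 2.09 (SD, n = 3 each). HSPA1B was thus the highest and HSPA1L the lowest of the 3 per length in all groups of eIF4G1 and eIF1.

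How the authors' counting treated reads that fit both HSPA1A and HSPA1B is unknown, so the split between the copies is a property of the counting as well as of the RNA. HSPA1A took 25.6%, 22.0% and 26.2% of the pair's reads in eIF4G1 with i14G1-12, against 19.0%, 22.9% and 20.9% with DMSO, and these groups overlapped. In eIF1 it took 27.1%, 21.3% and 25.1% with i14G1-12, against 14.1%, 15.2% and 15.3% with DMSO. Those DMSO shares rest on 1253, 1386 and 1239 reads, and their exact 95% binomial intervals end at 16.2%, 17.2% and 17.4%, below the lower ends of 24.1%, 19.1% and 22.6% of the i14G1-12 libraries. These intervals cover counting error only, not the spread between libraries. The fold in eIF1 was larger for HSPA1A, at 2.54, than for HSPA1B, at 1.37, as far as the assignment of reads to the copies can be relied on.

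The eIF1 DMSO libraries had the lowest shares of HSPA1A of all 20. The next lowest was DMSO replicate 1 of eIF3, at 16.3% of 331 reads, with an interval from 12.5% to 20.7% that overlaps theirs. Expressed per length, HSPA1B exceeded HSPA1A by 5.80, 5.31 and 5.30 times in the eIF1 DMSO libraries, against 2.57, 3.52 and 2.84 times in the eIF1 i14G1-12 libraries. In eIF3 HSPA1A took 26.6% and 29.5% of the pair with i14G1-12, against 16.3% and 33.3% with DMSO, the last from 12 reads. In eIF2a it took 25.9% and 20.8% with i14G1-12, against 23.2% and 29.4% with DMSO, the last from 34 reads.

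**Figure D5:**
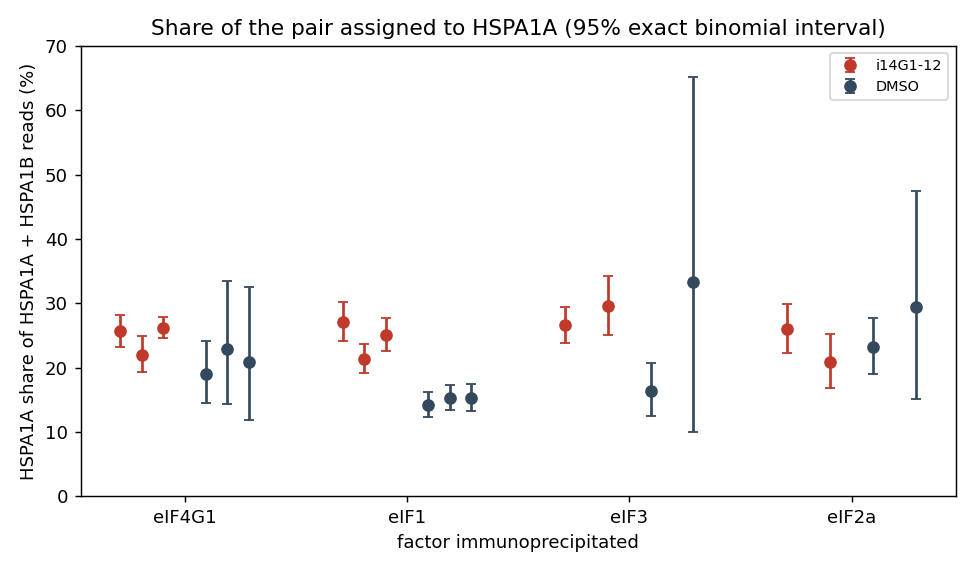
The vertical axis gives the percentage of HSPA1A and HSPA1B reads that were assigned to HSPA1A in each library, with exact 95% binomial intervals, i14G1-12 left of DMSO. The 3 eIF1 DMSO libraries lie at 14.1% to 15.3%, and the 10 i14G1-12 libraries lie at 20.8% to 29.5%.

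HSPA1L took 1.13%, 1.21% and 3.07% of the reads of the 3 genes in eIF4G1 with i14G1-12, against 1.76%, 1.19% and 0% with DMSO. In eIF1 it took 2.01%, 1.11% and 2.81% with i14G1-12, against 0.634%, 1.28% and 0.801% with DMSO. The shares overlapped between treatments in both. Whether reads of HSPA1A or HSPA1B were counted as HSPA1L was not tested, since it needs the reads.

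Outside the 3 members, the genes whose log2 CPM followed the pair most closely over the 20 libraries were ENSG00000168028, with Pearson's r = 0.85, and ENSG00000184009, with r = 0.83. HSPA1L had r = 0.76 by the same measure. Over the 8 group means the first of these IDs was 11th and the second was 7th in the order of likeness. All points share their library and its scaling, so these values are descriptions, and of the 5 genes most alike over the libraries 1 remained among the 5 most alike over group means.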

How the data were processed

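Per the file headers, the values deposited by the authors are unnormalized read counts for each gene, laid out as by featureCounts. Cutadapt, Trimmomatic, HISAT2, Bowtie and featureCounts, with build hg38, are named per the submitters' processing notes. Counts were made on 1 sequence per Ensembl ID, and its deposited length gives other values per kb. Columns were matched to samples by name, and those of eIF1 to their group only. Replicate pairs differed by more than counting noise (chi-square per degree of freedom 1.34 to 10.2). Genes were tested with edgeR 4.0.16 in R 4.3.3 (filterByExpr with a minimum count of 10, TMM, glmQLFTest, Benjamini-Hochberg threshold 0.05), in the libraries of each immunoprecipitation or in all 20 for differences between them. SEs are log2 fold changes divided by the root of the F statistic, and 95% intervals are normal around them. The pair was fitted with both copies summed into 1 feature. The scripts were tested on simulated data. Promoters are RefSeq's (GRCh38.p14). DESeq2 1.42.0 was an alternative.

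Members, lists and rules were chosen with earlier results of these data known. The rule for named genes was the 3 members, heat shock and chaperone lists by symbol, a list of cell line markers and the genes most like the pair. The lists were not run, since 0 of 19029 IDs matched a symbol in the reference table. For that reason 2 of the 5 genes most like the pair are given, by ID.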

Additional observations from a re-analysis of the deposited data

How the results depend on the processing

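For the pair, the eIF4G1 effect of 3.61 lay between 3.28 and 3.77 over libraries left out, that of eIF1 between 0.54 and 0.71, that of eIF3 between 2.08 and 3.88 and that of eIF2a between -0.17 and 0.95. The effect in eIF4G1 minus that in eIF1 lay between 2.63 and 3.10. Scaling to total counts moved the eIF1 effect of the pair to 0.49, while it moved the median of all genes to -0.13 in eIF1 and -0.16 in eIF4G1. With total counts the DMSO level of the pair in eIF4G1 differed by -2.36 from that in eIF1 and by -3.04 from that in eIF2a, settings that were added for level differences after the data had been seen. The other settings moved the pair's effect in each immunoprecipitation by less than the spread between replicates. Numbers of genes called depended on the settings more than the members' values did, and the causes were not tested, apart from fewer genes or libraries being the setting itself. The eIF1 count of 38 (27 higher, 11 lower) was 129 without a filter, 70 at a minimum count of 30, 174 by DESeq2, 4 in 1 fit to all 20 libraries, 24 higher and 16 lower with total counts, and 2 to 64 over libraries left out. The eIF4G1 count of 25 was 68, 40 and 97 under the first 3 of these and 4 to 46 over libraries left out. The eIF3 count of 1 was 0 with total counts, 2 without a filter, 3 by DESeq2, 5 in 1 fit to all 20 libraries and 0 to 3 over libraries left out, and the eIF2a count of 0 was 0 to 13 over libraries left out. The eIF4G1 minus eIF1 count of 3 was 1 with the copies summed, 2 by DESeq2, and 1 to 3 over libraries left out.

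With the replicate number as a block, the pair's log2 fold change was 3.57 in eIF4G1, 0.40 in eIF2a and 2.88 in eIF3, and the number of genes called in eIF3 went to 38. Deviations from group means of libraries with the same number correlated at 0.548 in eIF3, -0.0192 in eIF2a and -0.149 to 0.00596 in eIF4G1. The labels do not say that a number marks a shared culture or day. In eIF3 same-numbered libraries did deviate together, and the block brought the SE of the pair to 0.34, against 0.78 without it, but with 2 numbers this is a hint from the data only. No block could be made for eIF1, whose columns carry no replicate number. In eIF2a and eIF3 depth limits the DMSO levels, with 34 and 12 reads of the pair in the shallow libraries.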
